A study of Mus musculus with 8 samples.

Results

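The genes described here are 40 mouse genes: Myc, its partner Max and 38 genes of nucleolar ribosome biogenesis. They were taken by symbol from a table of 24421 genes, and all 40 were listed and passed the filter on low counts that kept 12744 genes. The set holds 2 genes of the Myc network, 4 of RNA polymerase I transcription, 6 nucleolar scaffold proteins and regulators, 4 proteins of box C/D and 4 of box H/ACA ribonucleoprotein particles, and 10 assembly factors each for the small and the large ribosomal subunit. RNA was sequenced from mouse HSPCs (blood stem cells and their early progenitors) recovered from mice after a primary transplant. In 3 of the 4 groups the cells were a double knockout (dKO), which the series title ties to beta-catenin (Ctnnb1) and Hoxa9. These dKO cells carried wild-type PRMT1, an arginine methyltransferase (dKO_PRMT1), an enzymatically dead PRMT1 (dKO_MUT) or an empty vector (dKO_EV). The fourth group, WT_EV, was wild type and carried the empty vector, and each group had 2 libraries.

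Ribosomes are built in the nucleolus, where RNA polymerase I copies the ribosomal RNA genes. Small nucleolar ribonucleoproteins (snoRNPs) then modify the precursor RNA: box C/D particles methylate riboses and box H/ACA particles convert uridine to pseudouridine. Large sets of assembly factors fold, cleave and export the small and the large subunit. Myc, a transcription factor that binds DNA as a dimer with Max, is known as an activator of many of these genes, and in blood progenitors the pathway follows growth and division.

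The libraries held 15531344 to 22329749 counts. Levels of a gene across libraries are given as CPM, counts on scaled library sizes, and levels of different genes are compared as TPM, which also divide by gene length. Each difference is a log2 fold change ± its standard error (SE), with n = 2 libraries a group. "Rose", "fell" and "called" are used of genes whose p, from the quasi-likelihood test of edgeR, stayed under 0.05 after Benjamini-Hochberg adjustment over all 12744 tested genes. Whether the replicates of a group were separate animals or cultures is not said in the labels, and p-values therefore cover the spread between these libraries, possibly technical. "Without" a library means that this library alone was left out of the fit. Prmt1 was measured at 981 and 976 CPM with wild-type PRMT1 (dKO_PRMT1), at 1744 and 1758 CPM with the mutant (dKO_MUT), at 190 and 194 CPM in dKO_EV, and at 188 and 192 CPM in WT_EV. The title of dKO_MUT replicate 2 places it with the mutant, whereas its genotype label reads PRMT2. Hoxa9 stood at 1.87 to 5.79 CPM in the 6 dKO libraries, against 17.2 and 18.2 CPM in WT_EV. Ctnnb1 had 360.1 to 391 CPM in the dKO libraries, against 444 and 455 CPM in WT_EV. The 6 dKO libraries had 0 counts of Xist and 58.2 to 68.5 CPM of the Y-linked Ddx3y, whereas WT_EV had 159 and 121 CPM of Xist and 0 of Ddx3y, so that genotype and sex cannot be told apart in any comparison with WT_EV.

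The 40 genes spanned a wide range of levels per length. Npm1, a nucleolar histone chaperone, was the highest at a mean of 1418 TPM over the 8 libraries, and Ncl, the RNA-binding protein nucleolin, followed at 401 TPM. This order rests on the deposited gene lengths, 1718 bases for Npm1 and 8257 bases for Ncl. In CPM, without division by length, Ncl lay above Npm1 in all 8 libraries. Noc3l, a large subunit assembly factor, was the lowest at 19.5 TPM. The 40 genes together took 0.735% and 0.747% of counts in dKO_PRMT1, 0.756% and 0.749% in dKO_MUT, 0.732% and 0.738% in dKO_EV, and 0.824% and 0.839% in WT_EV. The group mean was highest in WT_EV for 36 of the 40 genes, in dKO_MUT for 3, in dKO_PRMT1 for 1 and in dKO_EV for 0. In 29 of the 40 genes both WT_EV libraries lay above all 6 dKO libraries, a pattern held by 13.2% of all tested genes. The opposite pattern was held by 1 gene, Ubtf, and by 12.8% of all tested genes.

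**Figure D1:**
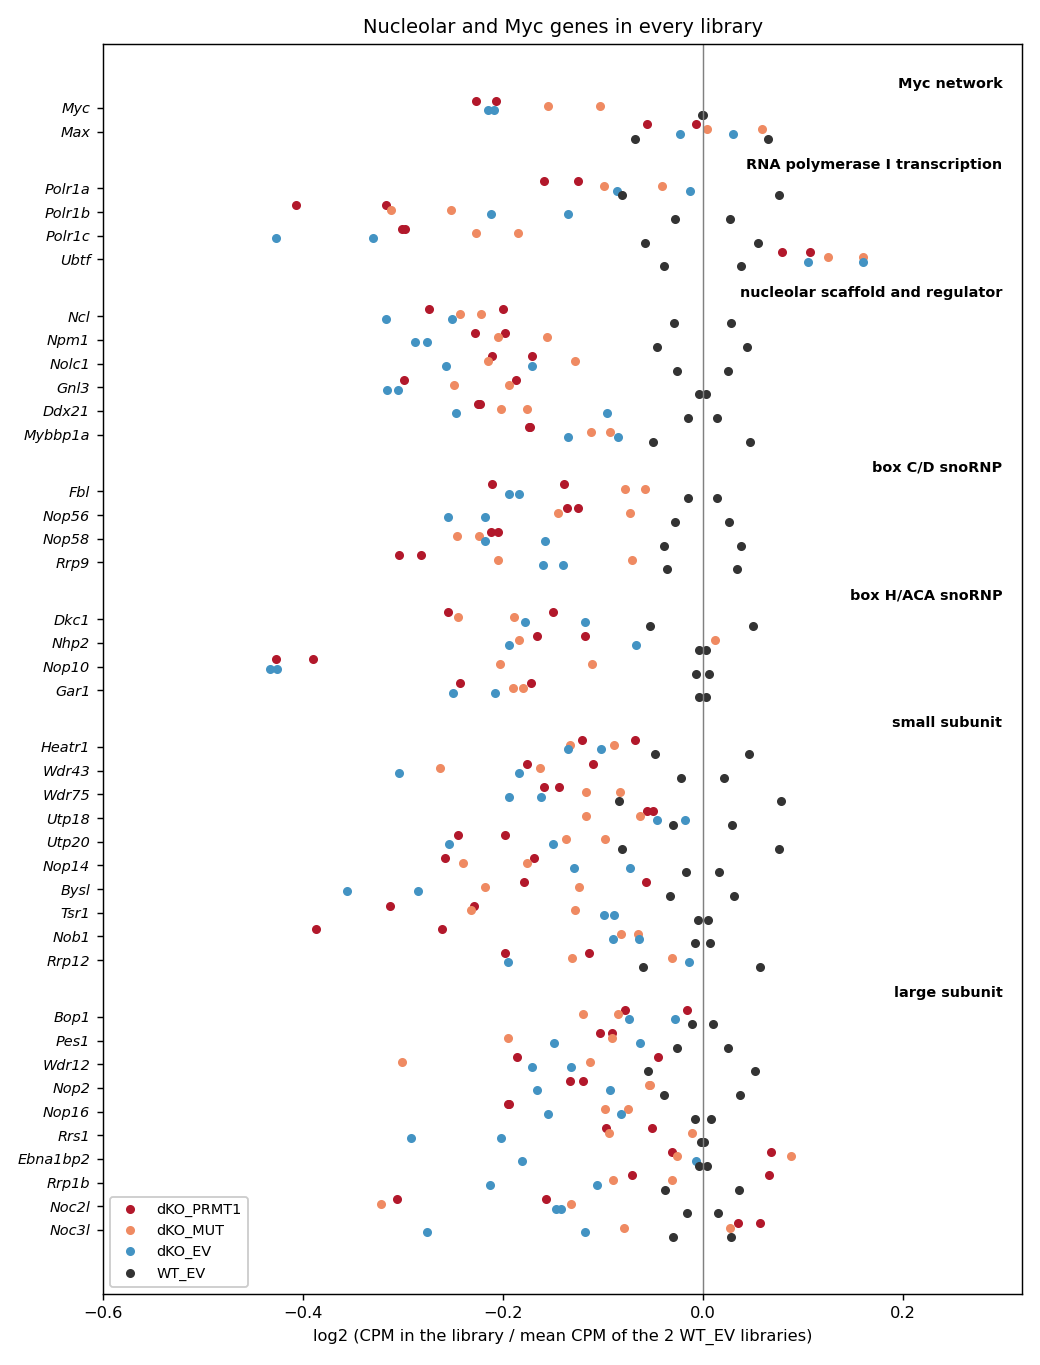
Level of each of the 40 genes in each of the 8 libraries, as log2 of its CPM over the mean CPM of WT_EV, with genes down the page by role and libraries coloured by group. The 6 dKO libraries lie left of both WT_EV libraries for 29 of the genes and right of both for Ubtf.

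The double knockout and the wild type were compared with the empty vector in both, so that neither carried added PRMT1. Of the 40 genes, 16 fell in dKO_EV and 1 rose, whereas 7% of all tested genes fell and 8.44% rose (15.4% in either direction). The median log2 fold change was -0.16 over the 40 genes and 0.00 over all tested genes, and 38 of the 40 values were negative. The libraries did not overlap, with dKO_EV lower, in 35 of the 40 genes, and 26% of all tested genes were separated that way. With dKO_EV higher, 1 of the 40 and 26.8% of all tested genes were separated. The decreases were small, with log2 fold changes of -0.17 to -0.43 among the 16. Without WT_EV replicate 1, 10 genes fell. DESeq2 called 14 of the 40 genes and limma voom 17. These are levels in bulk RNA, in which fewer cells of a type and less RNA per cell cannot be told apart.

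Of the 2 Myc network genes, Myc fell and Max was not called. Myc (chromosome 15, 61985341 to 61990361, GRCm38) had 156 and 156 CPM in dKO_EV, against 181 and 181 CPM in WT_EV. Its 2 libraries in each group were nearly equal and the groups lay apart, and Myc fell by 0.21 ± 0.0516 (adjusted p = 0.0033). Max had 107 and 111 CPM in dKO_EV, against 104 and 114 CPM in WT_EV. The WT_EV libraries of Max enclosed those of dKO_EV, and the difference was 0.01 ± 0.0636 (adjusted p = 0.972).

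In the RNA polymerase I group, 1 gene fell, 1 rose and 2 were not called. Polr1c (chromosome 17, 46243920 to 46248045), a subunit shared by RNA polymerases I and III, had 30.7 and 28.7 CPM in dKO_EV, against 40.1 and 37.1 CPM in WT_EV. It fell by 0.38 ± 0.105 (adjusted p = 0.00966), a call lost without dKO_EV replicate 2 (adjusted p = 0.0586) or WT_EV replicate 1 (adjusted p = 0.166). Polr1a, the largest polymerase I subunit, had 103 and 97.4 CPM in dKO_EV, against 109 and 97.8 CPM in WT_EV, which overlapped. Polr1b (chromosome 2, 129100996 to 129126595), a core subunit, was at 64.2 and 67.6 CPM in dKO_EV, against 75.7 and 72.9 CPM in WT_EV, and did not pass (-0.17 ± 0.0771, adjusted p = 0.14). Ubtf (chromosome 11, 102304563 to 102319096), the factor that keeps ribosomal RNA genes open for polymerase I, had 246 and 256 CPM in dKO_EV, against 235 and 223 CPM in WT_EV. It was the only gene of the 40 that rose, by 0.13 ± 0.0465 (adjusted p = 0.0473), a call kept without dKO_EV replicate 1 and lost when any of the other 7 libraries was left out.

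Of the 6 scaffold and regulator genes, 5 fell, and in all 6 both dKO_EV libraries lay below both WT_EV libraries. Ncl (chromosome 1, 86344719 to 86359455) had 1536 and 1608 CPM in dKO_EV, against 1875 and 1951 CPM in WT_EV. Npm1 (chromosome 11, 33152498 to 33163206) had 1138 and 1147 CPM in dKO_EV, against 1346 and 1432 CPM in WT_EV. Each of these abundant genes fell by 0.28, Ncl with an SE of 0.0333 (adjusted p = 5.41e-08) and Npm1 with an SE of 0.0341 (adjusted p = 9.98e-08), the 2 smallest p-values of the set. Npm1 has processed pseudogenes, and its counts are uncertain where reads were shared with them. Gnl3 (chromosome 14, 31012433 to 31019131), the GTPase nucleostemin, stood at 86.5 and 87.1 CPM in dKO_EV, against 108 and 107 CPM in WT_EV, and fell by 0.31 ± 0.066 (adjusted p = 0.000757). Nolc1 (chromosome 19, 46075847 to 46085543), which chaperones snoRNPs, had 226 and 240.0 CPM in dKO_EV, against 275 and 266 CPM in WT_EV, and fell by 0.21 ± 0.0476 (adjusted p = 0.00138). Ddx21 (chromosome 10, 62580247 to 62602298), an RNA helicase of ribosomal RNA transcription and processing, had 376 and 338 CPM in dKO_EV, against 398 and 406 CPM in WT_EV. It fell by 0.17 ± 0.0439 (adjusted p = 0.00538), and its call was lost without dKO_EV replicate 2 (adjusted p = 0.145) or WT_EV replicate 2 (adjusted p = 0.0571). Mybbp1a, a nucleolar Myb-binding protein, was not called (-0.11 ± 0.0403, adjusted p = 0.0615), but it fell without dKO_EV replicate 2 or without WT_EV replicate 2.

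The box C/D proteins had 3 decreases among 4 genes. Nop56 (chromosome 2, 130274412 to 130279313), a core protein of the particle, had 184 and 179 CPM in dKO_EV, against 210 and 218 CPM in WT_EV, and fell by 0.24 ± 0.0494 (adjusted p = 0.000634). Fbl (chromosome 7, 28169748 to 28179269), the ribose methyltransferase fibrillarin, had 179 and 180 CPM in dKO_EV, against 207 and 203 CPM in WT_EV. It fell by 0.19 ± 0.0495 (adjusted p = 0.00652; adjusted p = 0.0892 without WT_EV replicate 1). Nop58 (chromosome 1, 59685006 to 59711510), the partner of Nop56, had 191 and 184 CPM in dKO_EV, against 208 and 219 CPM in WT_EV, and also fell by 0.19 (SE 0.0498, adjusted p = 0.00712). That call was lost without dKO_EV replicate 2 (adjusted p = 0.053) or WT_EV replicate 2 (adjusted p = 0.169). Rrp9, which binds the snoRNA needed for early cleavage of the precursor, had 43.1 and 42.5 CPM in dKO_EV, against 48.6 and 46.3 CPM in WT_EV, and was not called.

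Among the box H/ACA proteins, 2 of 4 genes fell. Nop10 (chromosome 2, 112261926 to 112262898), a small core protein of the particle, had the largest decrease of the 40 genes. It had 58.4 and 58.7 CPM in dKO_EV, against 79.2 and 78.5 CPM in WT_EV, a fold of 0.743 (log2 fold change -0.43 ± 0.0758, adjusted p = 6.59e-05). Gar1 (chromosome 3, 129824912 to 129831396), another core protein, had 59.8 and 58.1 CPM in dKO_EV, against 68.9 and 69.3 CPM in WT_EV. It fell by 0.23 ± 0.0777 (adjusted p = 0.0396), a call lost without either WT_EV library, dKO_EV replicate 2 or dKO_PRMT1 replicate 2. The pseudouridine synthase Dkc1, the only X-linked gene of the set, had 151 and 158 CPM in dKO_EV, against 165 and 177 CPM in WT_EV, and was not called (-0.15 ± 0.0559, adjusted p = 0.0748). Nhp2, the remaining core protein, had 132 and 144 CPM in dKO_EV, against 150.0 and 151 CPM in WT_EV, and was not called either.

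Of the 10 small subunit factors 3 fell, and all 10 log2 fold changes were negative. Bysl (chromosome 17, 47599331 to 47611492), which acts in late maturation of the small subunit, had 46.1 and 48.5 CPM in dKO_EV, against 60.3 and 57.7 CPM in WT_EV. It fell by 0.32 ± 0.0857 (adjusted p = 0.00794; adjusted p = 0.109 without WT_EV replicate 1). Its exons overlap those of Ccnd3, a gene with more counts on the other strand, over 358 bases, and the strand setting of the counts is not given in the sources used here. Wdr43 (chromosome 17, 71616215 to 71659031), a protein of the early processome, had 130 and 141 CPM in dKO_EV, against 158 and 163 CPM in WT_EV. It fell by 0.24 ± 0.0576 (adjusted p = 0.00281). Utp20 (chromosome 10, 88746607 to 88826814), a large scaffold of the processome, had 92.5 and 99.4 CPM in dKO_EV, against 116 and 104 CPM in WT_EV. It fell by 0.20 ± 0.067 (adjusted p = 0.0385), and the call was lost without dKO_EV replicate 1, WT_EV replicate 1 or dKO_PRMT1 replicate 2. The 7 others, Heatr1, Wdr75, Utp18, Nop14, Tsr1, Nob1 and Rrp12, had log2 fold changes of -0.18 to -0.03 and were not called.

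Of the 10 large subunit factors 1 fell, although all 10 had both dKO_EV libraries below both WT_EV libraries. Rrs1 (chromosome 1, 9545408 to 9547455), which helps to bring the 5S particle into the large subunit, had 84.5 and 79.4 CPM in dKO_EV, against 97.1 and 97.3 CPM in WT_EV. It fell by 0.25 ± 0.0674 (adjusted p = 0.00864), and the call was lost without dKO_EV replicate 2 (adjusted p = 0.0686), WT_EV replicate 1 (adjusted p = 0.0673) or WT_EV replicate 2 (adjusted p = 0.069). Bop1, Pes1 and Wdr12, the 3 proteins of the PeBoW complex, had log2 fold changes of -0.05, -0.10 and -0.15. The rRNA methyltransferase Nop2 and the factors Nop16, Ebna1bp2, Rrp1b, Noc2l and Noc3l had values of -0.19 to -0.09. None of these 9 genes was called.

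**Figure D2:**
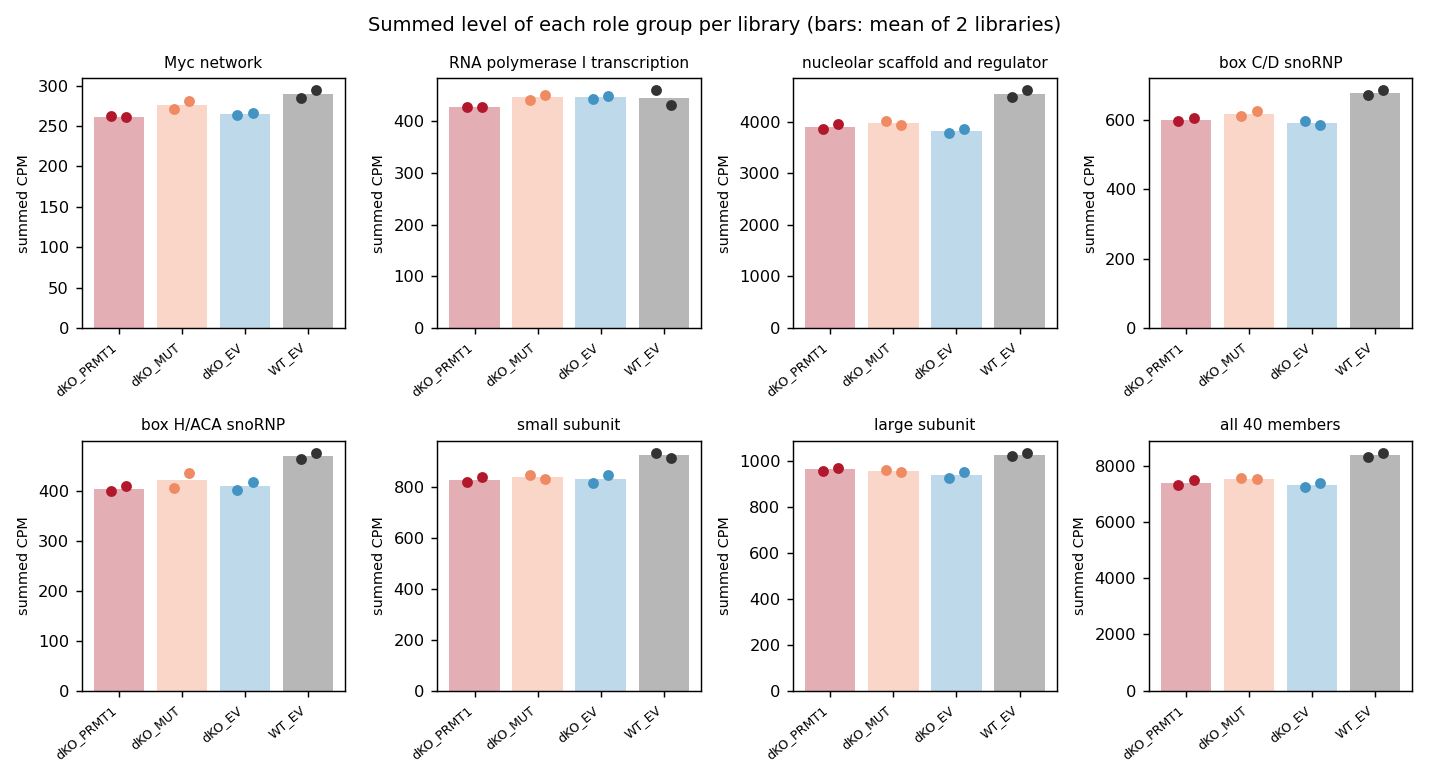
Summed CPM of the genes of each role and of all 40 genes, with bars at the mean of the 2 libraries of a group and dots for the libraries. The bar of all 40 genes stands highest in WT_EV, and the scaffold group, which holds Ncl and Npm1, makes up most of it.

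Promoters were read to show what sequence lies at the starts of these genes. An E-box spelled CACGTG, the site bound by Myc and Max and its own reverse complement, was searched in the 300 bases from 250 before to 50 after the start in RefSeq's GRCm38.p6 annotation. An entry was found for 34 of the 40 genes, Myc, Npm1, Fbl, Rrs1, Rrp12 and Bop1 being the other 6. The motif was present in 8 of the 34 (23.5%), against 8.09% of the 27025 genes with an entry. That background holds genes not expressed here as well, and the share among the tested genes was not computed. These were Max, Mybbp1a, Nop2, Pes1, Tsr1, Utp18, Utp20 and Wdr43. Among the genes that fell in dKO_EV it was in 2 of 12, and among those not called in 6 of 21. Nop10, the gene with the largest decrease, and Ncl, the gene with the smallest p, lacked the letters in this window. They are shown beside Wdr43 and Utp20, the 2 genes that fell and hold the motif, which is in capitals and begins 18 and 38 bases after the start. A match describes the letters only and was not tested as a binding site.
Nop10, chr2:112261676-112261975, plus strand: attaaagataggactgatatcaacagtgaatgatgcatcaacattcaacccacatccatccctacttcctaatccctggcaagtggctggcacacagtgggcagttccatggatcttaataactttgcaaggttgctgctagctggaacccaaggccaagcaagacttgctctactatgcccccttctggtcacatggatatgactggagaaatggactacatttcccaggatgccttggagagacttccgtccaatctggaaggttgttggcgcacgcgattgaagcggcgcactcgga
Ncl, chr1:86359406-86359705, minus strand: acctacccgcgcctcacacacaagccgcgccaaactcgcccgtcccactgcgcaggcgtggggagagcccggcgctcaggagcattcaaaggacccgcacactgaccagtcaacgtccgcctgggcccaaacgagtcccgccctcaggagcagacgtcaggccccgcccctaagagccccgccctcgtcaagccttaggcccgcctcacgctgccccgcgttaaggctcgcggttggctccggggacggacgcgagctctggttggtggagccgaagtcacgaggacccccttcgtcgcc
Wdr43, chr17:71615965-71616264, plus strand: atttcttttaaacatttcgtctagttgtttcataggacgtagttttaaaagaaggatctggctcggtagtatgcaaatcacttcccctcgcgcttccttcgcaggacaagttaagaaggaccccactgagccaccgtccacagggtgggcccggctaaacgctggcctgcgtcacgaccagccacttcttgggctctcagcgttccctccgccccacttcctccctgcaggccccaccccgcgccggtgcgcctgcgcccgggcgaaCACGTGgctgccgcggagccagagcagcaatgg
Utp20, chr10:88826765-88827064, minus strand: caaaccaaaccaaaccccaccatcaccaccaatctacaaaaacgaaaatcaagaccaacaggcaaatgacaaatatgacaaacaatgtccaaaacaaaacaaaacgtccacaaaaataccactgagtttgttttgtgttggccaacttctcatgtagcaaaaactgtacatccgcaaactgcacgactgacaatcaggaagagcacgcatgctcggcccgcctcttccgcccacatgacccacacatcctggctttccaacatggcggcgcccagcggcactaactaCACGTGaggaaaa

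Wild-type PRMT1 in dKO cells was compared with the empty vector in the same cells. Of the 40 genes, 0 rose and 0 fell in dKO_PRMT1 relative to dKO_EV in edgeR's quasi-likelihood test, whereas 5.96% of all tested genes rose and 8.67% fell (14.6% in either direction). DESeq2 and limma voom also called 0, and 8 of the 40 genes had an unadjusted p under 0.05, against 26% of all tested genes. The median log2 fold change was 0.00 over the 40 genes, with values of -0.25 to 0.24 and standard errors of 0.0334 to 0.106. The libraries lay apart with dKO_PRMT1 higher in 10 genes and lower in 10, whereas 25.8% and 26.4% of all tested genes were separated in these directions.

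Myc had 154 and 156 CPM in dKO_PRMT1, against 156 and 156 CPM in dKO_EV, a difference of -0.01 ± 0.0518. Ncl had 1582 and 1666 CPM in dKO_PRMT1, against 1536 and 1608 CPM in dKO_EV, which overlapped (0.05 ± 0.0334). Npm1 had 1186 and 1211 CPM in dKO_PRMT1, against 1138 and 1147 CPM in dKO_EV, and lay apart without being called (0.07 ± 0.0342, adjusted p = 0.194). Nop10, Fbl, Gar1, Max and Polr1a differed by 0.02, 0.01, 0.02, -0.04 and -0.09, all uncalled. The nearest to a call was Nob1 (chromosome 8, 107412489 to 107425038), the endonuclease that makes the final cleavage of small subunit rRNA. It had 45.7 and 41.9 CPM in dKO_PRMT1, against 51.4 and 52.4 CPM in dKO_EV (-0.25 ± 0.0865, adjusted p = 0.0507). It was called, at an adjusted p of 0.0371, when genes were kept only at 5 CPM or more in at least 2 libraries. The highest values belonged to Noc3l (0.24 ± 0.098), Bysl (0.20 ± 0.0859), Rrs1 (0.17 ± 0.0675), Rrp1b (0.16 ± 0.0772) and Nop56 (0.11 ± 0.0495, tied with Ebna1bp2). None of these passed, and Rrs1 was called higher only without dKO_EV replicate 1 (0.22, adjusted p = 0.0459).

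The dead enzyme stands for PRMT1 without its activity. Prmt1 was at 1744 and 1758 CPM in dKO_MUT, against 981 and 976 CPM in dKO_PRMT1. The arms thus differ in Prmt1 RNA as well as in activity, and these cannot be told apart here. Relative to dKO_EV, 2 of the 40 genes rose in dKO_MUT and 0 fell, whereas 4.24% of all tested genes rose and 7.08% fell (11.3% in either direction). At an unadjusted p under 0.05 there were 5 higher and 0 lower, against 23.6% of all tested genes in either direction, and DESeq2 called 2 and limma voom 3. The median was 0.03 over the 40 genes and 0.00 over all tested genes. With dKO_MUT higher the libraries lay apart in 16 of the 40 genes, against 23.9% of all tested genes, and with dKO_MUT lower in 7, against 24.3%. Nop10 had 68.5 and 73.0 CPM in dKO_MUT, against 58.4 and 58.7 CPM in dKO_EV. It rose by 0.27 ± 0.0761 (adjusted p = 0.014), a call lost without dKO_MUT replicate 2 (adjusted p = 0.14). Npm1 had 1247 and 1205 CPM in dKO_MUT, against 1138 and 1147 CPM in dKO_EV, and rose by 0.10 ± 0.0341 (adjusted p = 0.047). The call of Npm1 was lost without any 1 of dKO_MUT replicate 1, dKO_MUT replicate 2, dKO_EV replicate 1, dKO_EV replicate 2, dKO_PRMT1 replicate 1 and dKO_PRMT1 replicate 2. The count of genes that rose was 0 without dKO_MUT replicate 2. It was 1 without dKO_MUT replicate 1, without dKO_EV replicate 2 and without either dKO_PRMT1 library.

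Other genes of the set stayed under the threshold in this comparison. Rrs1 had 96.5 and 91.1 CPM in dKO_MUT, against 84.5 and 79.4 CPM in dKO_EV, and just missed it (0.20 ± 0.0675, adjusted p = 0.0537). Myc had 162 and 168 CPM in dKO_MUT, against 156 and 156 CPM in dKO_EV (0.08 ± 0.0517, adjusted p = 0.353). The groups lay apart for both genes. Fbl was at 0.12 ± 0.0495 (adjusted p = 0.12) and Nop56 at 0.13 ± 0.0495 (adjusted p = 0.0971). Ncl, Gar1, Max and Polr1a were at 0.05, 0.04, 0.03 and -0.02.

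Set directly against dKO_MUT, dKO_PRMT1 had 0 genes of the 40 higher and 0 lower in edgeR's quasi-likelihood test, whereas 1.43% of all tested genes were higher and 1.68% lower (3.11% in either direction). DESeq2 and limma voom called 0 as well, and 3 of the 40 genes had an unadjusted p under 0.05, against 13.3% of all tested genes. The median log2 fold change was -0.03, and dKO_PRMT1 lay wholly below dKO_MUT in 16 genes, against 21.8% of all tested genes, and wholly above it in 4, against 22.3%. Nop10 had 58.7 and 60.2 CPM in dKO_PRMT1, against 68.5 and 73.0 CPM in dKO_MUT (-0.25 ± 0.0757, adjusted p = 0.0627). It was called lower in a fit of these groups alone (adjusted p = 0.0444), without dKO_EV replicate 1 (adjusted p = 0.0293) and without dKO_EV replicate 2 (adjusted p = 0.0305). Nob1 had 45.7 and 41.9 CPM in dKO_PRMT1, against 52.3 and 51.7 CPM in dKO_MUT (-0.25 ± 0.0862, adjusted p = 0.126). All 4 genes of the RNA polymerase I group and both Myc network genes had their dKO_PRMT1 libraries below those of dKO_MUT. Their log2 fold changes were -0.09 to -0.05. Ncl, Npm1, Fbl, Nop56 and Gar1 were at 0.00, -0.03, -0.11, -0.02 and -0.02.

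**Figure D3:**
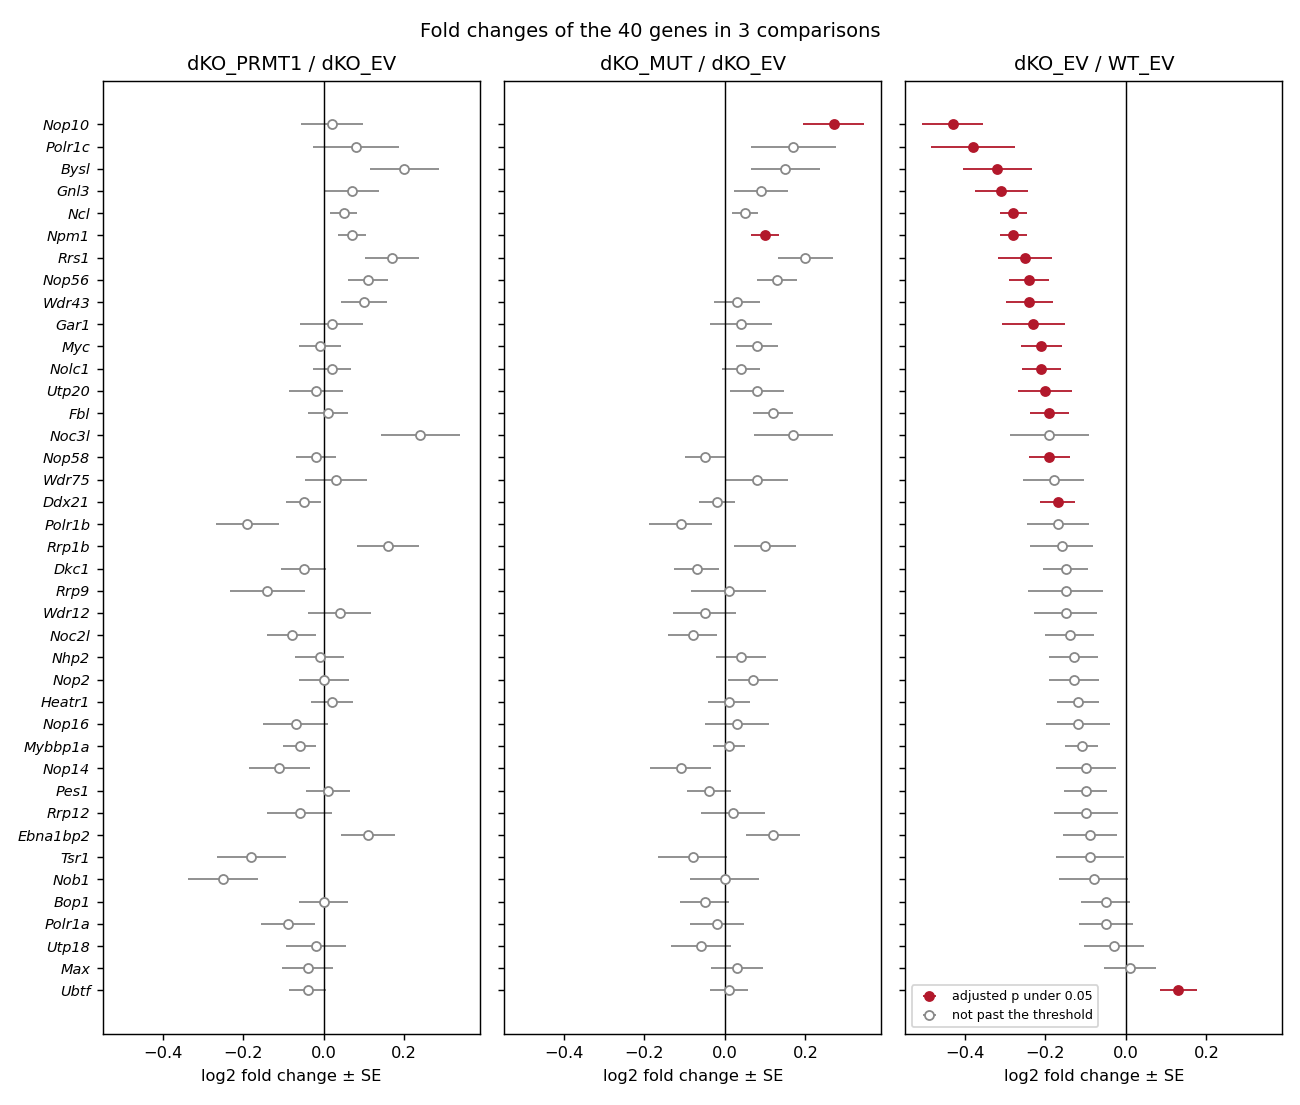
Log2 fold change ± SE of each of the 40 genes in dKO_PRMT1 over dKO_EV, dKO_MUT over dKO_EV and dKO_EV over WT_EV, with red filled points where the adjusted p was under 0.05. The third panel holds 16 decreases and 1 increase, the second 2 increases and the first none.

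Both PRMT1 arms were also set against WT_EV. In dKO_PRMT1, 20 of the 40 genes were lower than in WT_EV and 0 higher, against 12.2% and 11% of all tested genes (23.2% in either direction). At an unadjusted p under 0.05 there were 26 lower and 0 higher, against 32.6% of all tested genes in either direction, and DESeq2 called 17 and limma voom 20. The median was -0.17. The libraries lay apart with dKO_PRMT1 lower in 34 genes and higher in 2, against 31.4% and 31.2% of all tested genes. In dKO_MUT, 11 were lower and 1 higher, against 9.96% and 9.41% of all tested genes (19.4% in either direction), with a median of -0.12. The libraries lay apart with dKO_MUT lower in 31 genes and higher in 1, against 29.5% and 28.4% of all tested genes. These comparisons use the same 2 WT_EV libraries as that of dKO_EV. The 8 largest decreases in dKO_PRMT1 were those of Nop10 (-0.41), Polr1b (-0.36), Nob1 (-0.32), Polr1c (-0.30), Rrp9 (-0.29), Tsr1 (-0.27), Ncl (-0.24) and Gnl3 (-0.24). Tsr1, a factor of late small subunit assembly, shares 1159 exon bases with Srr, and its counts are uncertain where reads fell there. Polr1b had 59.6 and 56.0 CPM in dKO_PRMT1, 62.4 and 59.9 CPM in dKO_MUT, beside 75.7 and 72.9 CPM in WT_EV. It led the decreases in dKO_MUT, at -0.28 ± 0.0771 (adjusted p = 0.00692), ahead of Ncl, Nop58, Gnl3, Dkc1, Noc2l, Wdr43 and Nop14, at -0.23 to -0.21. Myc was lower by 0.22 ± 0.0514 in dKO_PRMT1 (adjusted p = 0.00146), and in dKO_MUT it was not called (-0.13 ± 0.0513, adjusted p = 0.0778). Npm1 was lower in both arms, at -0.21 in dKO_PRMT1 and -0.18 in dKO_MUT. Fbl and Gar1 were lower in dKO_PRMT1, at -0.17 and -0.21, and were not called in dKO_MUT, at -0.07 and -0.18. The call of Gar1 (adjusted p = 0.049) was lost without either dKO_PRMT1 library, either WT_EV library or dKO_MUT replicate 2, and with DESeq2 (adjusted p = 0.0715). That of Fbl was lost without dKO_PRMT1 replicate 1 (adjusted p = 0.145) or WT_EV replicate 1 (adjusted p = 0.0965). Nop56, Max and Polr1a were not called in either arm, with values of -0.13, -0.03 and -0.14 in dKO_PRMT1 and of -0.11, 0.03 and -0.07 in dKO_MUT. All 6 scaffold genes were lower in dKO_PRMT1 and 5 in dKO_MUT. The gene that was higher in dKO_MUT was Ubtf, at 250 and 256 CPM against 235 and 223 CPM in WT_EV (0.14 ± 0.0464, adjusted p = 0.025), a call lost without either dKO_MUT library or WT_EV replicate 2. The count of 20 was 10 without WT_EV replicate 1, 11 without dKO_PRMT1 replicate 1, and 13 without WT_EV replicate 2 or dKO_PRMT1 replicate 2. The count of 11 was 7 without dKO_MUT replicate 2, WT_EV replicate 1 or WT_EV replicate 2.

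The 4 further lists of the same pathway held 106 tested genes outside the 40. In dKO_EV relative to WT_EV, 14 of these 106 fell and 0 rose, with a median of -0.11, and 54 had both dKO_EV libraries below both WT_EV libraries. Over all tested genes 7% fell and 26% were separated that way. The 14 were 5 of 40 small subunit genes, 8 of 44 large subunit genes, 1 of 11 snoRNP assembly genes and 0 of 11 RNA polymerase I genes. Imp3, a protein of the small subunit processome, fell by 0.45 ± 0.0971, Utp11l by 0.30, Wdr36 by 0.24 and Nol11 by 0.25. Nifk, a large subunit factor, fell by 0.38 ± 0.075 and Ppan by 0.30, the methyltransferase Ftsj3 by 0.25 and the helicase Ddx24 by 0.20. The snoRNP gene was Nhp2l1, the box C/D core protein that binds the kink-turn of the RNA, which fell by 0.22 (adjusted p = 0.0137). The count of 14 was 8 without WT_EV replicate 1 and 5 without WT_EV replicate 2.

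In dKO_PRMT1 relative to dKO_EV, 1 of the 106 rose and 1 fell, against 5.96% and 8.67% of all tested genes. Mphosph10, another processome protein, had 83.6 and 81.8 CPM in dKO_PRMT1, against 62.7 and 66.4 CPM in dKO_EV (0.35 ± 0.0759, adjusted p = 0.000792). Ddx24 had 159 and 162 CPM in dKO_PRMT1, 158 and 162 CPM in dKO_MUT, 189 and 190.0 CPM in dKO_EV, and 216 and 218 CPM in WT_EV. It fell by 0.24 relative to dKO_EV in dKO_PRMT1 (adjusted p = 0.000574) and in dKO_MUT (adjusted p = 0.000556), comparisons that share the dKO_EV libraries. Nifk was the single gene of the 106 that rose in dKO_MUT relative to dKO_EV (0.25 ± 0.0753, adjusted p = 0.0232), and it was not called without dKO_EV replicate 2. Of all tested genes 4.24% rose and 7.08% fell in dKO_MUT relative to dKO_EV. The number that rose in dKO_PRMT1 was 4 without dKO_EV replicate 1, and 2 without dKO_EV replicate 2 or either dKO_MUT library. In dKO_MUT it was 3 without dKO_MUT replicate 1 or dKO_EV replicate 2, and 2 without dKO_EV replicate 1.

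Max also pairs with other proteins, some of which oppose Myc. Of 13 other genes of this network, 4 rose in dKO_EV relative to WT_EV and 0 fell, against 8.44% and 7% of all tested genes. Mycn, the paralogue of Myc, had 23.9 and 21.1 CPM in dKO_EV, against 11.6 and 11.7 CPM in WT_EV, and rose by 0.95 ± 0.161 (adjusted p = 3.76e-05). Mxd1, a Max partner that represses at E-boxes, had 121 and 126 CPM in dKO_EV, against 89.8 and 82.6 CPM in WT_EV, and rose by 0.52 ± 0.064 (adjusted p = 1.33e-07). Its relatives Mxi1 and Mxd4 rose by 0.37 ± 0.0726 (adjusted p = 0.000263) and by 0.42 ± 0.133 (adjusted p = 0.0288). The groups did not overlap for any of these 4 genes.

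Mycn fell in both PRMT1 arms relative to dKO_EV. It had 9.83 and 10.1 CPM in dKO_PRMT1, 10.9 and 12.3 CPM in dKO_MUT, beside 23.9 and 21.1 CPM in dKO_EV. The differences were -1.17 ± 0.163 in dKO_PRMT1 (adjusted p = 1.04e-06) and -0.96 ± 0.161 in dKO_MUT (adjusted p = 3.62e-05), and both use the dKO_EV libraries. Mxd1 had 107 and 98.8 CPM in dKO_PRMT1, 140 and 140 CPM in dKO_MUT, beside 121 and 126 CPM in dKO_EV. It fell by 0.26 ± 0.0632 in dKO_PRMT1 relative to dKO_EV (adjusted p = 0.00306), and it was not called in dKO_MUT (0.18 ± 0.0623, adjusted p = 0.0614). Between the arms Mxd1 was lower with wild-type PRMT1: dKO_PRMT1 over dKO_MUT was -0.44 ± 0.0627 (adjusted p = 9.65e-06). Mlx, a Max-like partner, rose in dKO_PRMT1 relative to dKO_EV (0.28, adjusted p = 0.011), a count of 1 that was 0 without dKO_PRMT1 replicate 2 and 3 without dKO_EV replicate 2. The count of 2 that fell there was 1 without dKO_PRMT1 replicate 2.

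**Figure D4:**
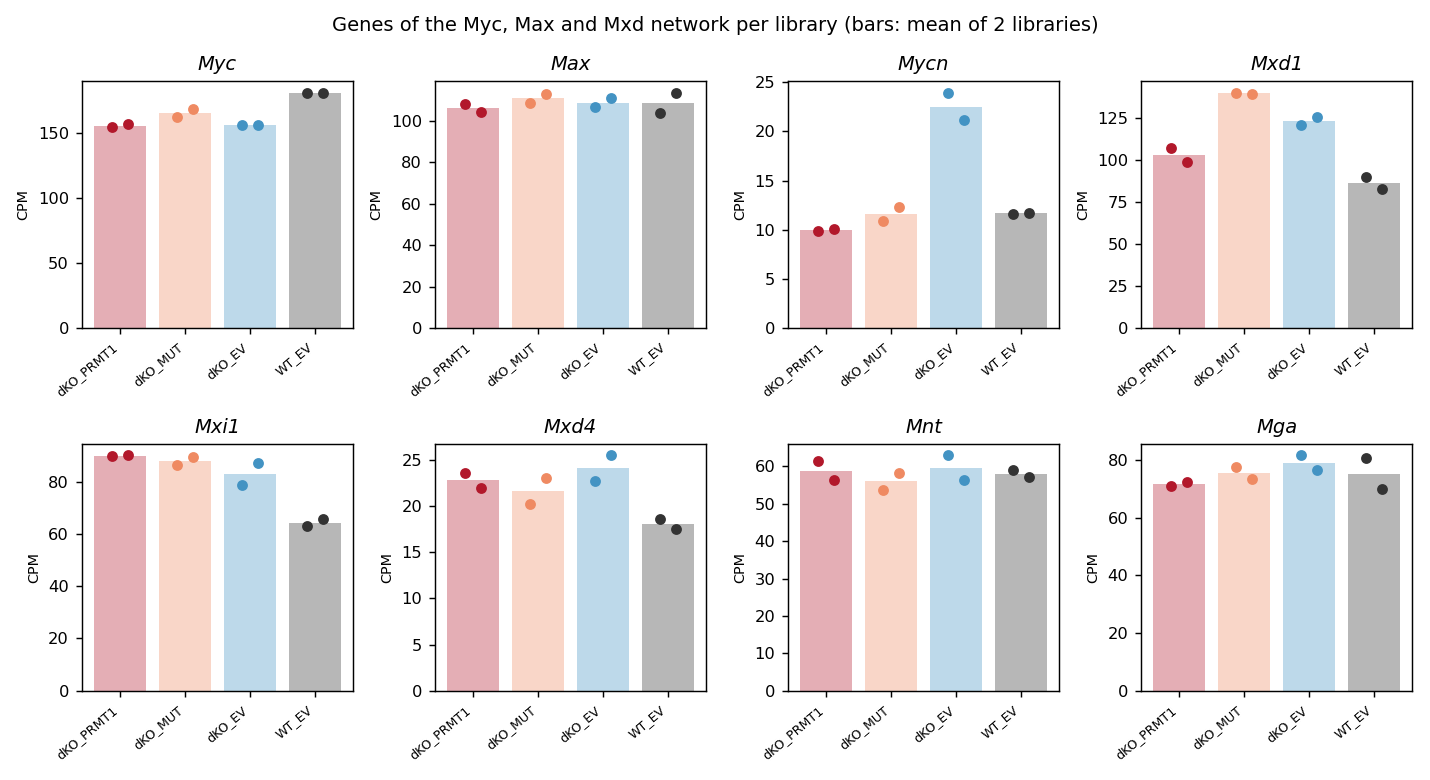
CPM of Myc, Max, Mycn, Mxd1, Mxi1, Mxd4, Mnt and Mga in the 8 libraries, with dots for libraries grouped by sample group. Mycn stands at 21.1 and 23.9 CPM in dKO_EV and at 9.83 to 12.3 CPM in the other 6 libraries, whereas Myc is highest in WT_EV.

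Of 29 other genes listed as Myc targets, 15 fell in dKO_EV relative to WT_EV and 0 rose, against 7% and 8.44% of all tested genes. The median was -0.17 and all 29 values were negative. Tfrc, the transferrin receptor, fell by 0.35 ± 0.0428 (adjusted p = 1.05e-07) and the cyclin Ccnd2 by 0.41 ± 0.0528 (adjusted p = 3.98e-07). The mitochondrial chaperonin genes Hspd1 and Hspe1 fell by 0.29 and 0.38. Tfrc had 330 and 341 CPM in dKO_PRMT1, 272 and 280 CPM in dKO_MUT, 267 and 275 CPM in dKO_EV, and 343 and 350 CPM in WT_EV. It rose in dKO_PRMT1 relative to dKO_EV (0.31 ± 0.0428, adjusted p = 1.13e-06), was higher in dKO_PRMT1 than in dKO_MUT (0.28 ± 0.0427, adjusted p = 2.29e-05), and did not pass in dKO_MUT relative to dKO_EV (0.02 ± 0.0431). No other gene of the 29 rose in dKO_PRMT1 relative to dKO_EV, and 3 fell: the amino acid transporter genes Slc3a2 (-0.45 ± 0.047) and Slc7a5 (-0.17), and the importin Ipo4 (-0.36). Of all tested genes 5.96% rose and 8.67% fell there. In dKO_MUT relative to dKO_EV 2 rose, Hspd1 by 0.14 and the spermidine synthase Srm by 0.18, and 2 fell, Slc3a2 by 0.34 and the ornithine decarboxylase Odc1 by 0.16. Of all tested genes 4.24% rose and 7.08% fell in that comparison. Those counts of 2 in dKO_MUT were 1 to 4 for the genes that rose, with 1 without dKO_MUT replicate 2 or dKO_EV replicate 1 and 4 without dKO_EV replicate 2. For the genes that fell it was 1 without dKO_EV replicate 2 or either dKO_MUT library. Srm and the pyrimidine enzyme gene Cad were lower in dKO_PRMT1 than in dKO_MUT (-0.19 for both), a count of 2 that was 0 without dKO_PRMT1 replicate 1, dKO_PRMT1 replicate 2 or dKO_MUT replicate 2 and 1 without dKO_MUT replicate 1.

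Markers of blood cell types also differed between the groups, among the dKO groups as well as between dKO_EV and WT_EV. In dKO_EV relative to WT_EV, 8.44% of all tested genes rose and 7% fell. Of 11 neutrophil markers all 11 rose in dKO_EV relative to WT_EV, and their summed level was 15580 to 16450 CPM in dKO_EV, against 8567 to 8780 CPM in WT_EV. Of 12 monocyte and macrophage markers 6 fell, with sums of 6462 to 6868 CPM in dKO_EV, against 8090 to 8192 CPM in WT_EV. Of 8 mast cell and basophil markers 7 fell, with sums of 692 to 718 CPM in dKO_EV, against 1428 to 1468 CPM in WT_EV. Of 7 megakaryocyte markers 2 rose, of 4 tested red cell markers 2 fell, and of 3 tested lymphoid markers 1 fell. Hba-a1, Hbb-bs and Hbb-b1, which define red cells, and the T cell gene Cd3e were at 0 in all 8 libraries. Of 10 stem and progenitor markers 4 rose and 4 fell, and all were present. Of 10 cell cycle genes 4 fell in dKO_EV relative to WT_EV and 0 rose, with sums of 3229 to 3281 CPM in dKO_EV, against 3469 to 3486 CPM in WT_EV. Leaving out dKO_EV replicate 2 or WT_EV replicate 2 left 1 cell cycle gene called, and leaving out WT_EV replicate 1 left 2, and the stem and progenitor count that rose was 2 without either dKO_EV library or either WT_EV library. In dKO_PRMT1 relative to dKO_EV, 6 of the 10 cell cycle genes rose and 0 fell (3595 to 3672 CPM in dKO_PRMT1), against 5.96% and 8.67% of all tested genes. In dKO_MUT relative to dKO_EV, 1 of the 10 rose and 0 fell (3438 to 3461 CPM in dKO_MUT), against 4.24% and 7.08% of all tested genes. Between these arms, 1 of the 10 was higher in dKO_PRMT1 and 0 were lower, against 1.43% and 1.68% of all tested genes. The neutrophil sums were 17640 to 17980 CPM in dKO_PRMT1 and 20480 to 20610 CPM in dKO_MUT, above the dKO_EV values. The single markers were split in dKO_PRMT1, where 5 of the 11 rose relative to dKO_EV and 3 fell, against 5.96% and 8.67% of all tested genes. In dKO_MUT 8 of the 11 rose relative to dKO_EV and 0 fell, against 4.24% and 7.08% of all tested genes. The monocyte and macrophage sums were 4323 to 4406 CPM in dKO_PRMT1 and 4263 to 4273 CPM in dKO_MUT, below those of dKO_EV. The mast cell and basophil sums were 432 to 456 CPM in dKO_PRMT1 and 821 to 834 CPM in dKO_MUT. The part of cell mixture and of cell division in the lower levels of the 40 genes in dKO_EV was not tested.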

How the data were processed

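RNA was measured in 8 libraries, assigned to 4 groups of 2 by their titles, since other labels (source, cell type) name dKO throughout. Total RNA came from the RNeasy Plus Micro kit and libraries from a Directional kit (NEB Ultra II), per the labels' protocols. Trim Galore 0.6.6, STAR 2.7.6a, featureCounts and GRCm38 (mm10) are named, per the submitters' processing notes. Neither the strand setting nor the gene annotation is given in the sources used here, so overlapping and antisense genes cannot be separated. The authors deposited 1 table of raw read counts, with each gene's length, and its 8 count columns were all used.

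The deposited counts were fitted with edgeR 4.0.16 (R 4.3.3). Its filterByExpr kept 12744 of 24421 genes, libraries were scaled by TMM, and a robust quasi-likelihood fit of all 8 libraries had group as its only term and 4 residual degrees of freedom. The common biological coefficient of variation was 0.0637 and the median prior degrees of freedom 30.4, so each gene's spread was drawn strongly towards that of other genes. Standard errors were the log2 fold change over the square root of its F statistic. CPM used scaled library sizes, and TPM used the deposited gene length. P-values were adjusted over all tested genes. As alternatives, the size factors of DESeq2 replaced TMM, the filter was changed, and DESeq2 1.42.0 or voom (limma 3.58.1) replaced edgeR. Fits to the compared groups alone, fits with a replicate block, the threshold 0.01 and fits without each library were also run. The counts of pathway and marker lists under these alternatives were added after the data were seen. Replicates of every group differed beyond sampling noise (chi-square over its degrees of freedom 3.63 to 6.39) and were counted separately. The steps were also run on simulated counts, with folds larger than most changes of this set. That run therefore does not show that changes as small as these are recovered.

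The 40 genes, the pathway and marker lists and the comparisons were chosen with earlier results of these data known, so their direction is not independent evidence. All 40 genes are accounted for. In each main comparison the called genes were named where 10 or fewer were called in a direction, otherwise the 8 with the largest change, with Myc, Max, Ncl, Npm1, Fbl, Nop56, Gar1 and Polr1a in any case, and up to 4 called genes per pathway list by smallest p. Other genes were added after their values were seen.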

Additional observations from a re-analysis of the deposited data

How the results depend on the processing

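No call changed direction under any alternative, but the median of the 40 genes in dKO_PRMT1 relative to dKO_EV, which was near 0 and untested, took either sign (-0.00583 with the filter of 5 CPM and -0.00073 with limma voom). For dKO_EV relative to WT_EV, the 1 gene of the 40 that rose (Ubtf) was 0 with no filter beyond 1 count, with DESeq2, in the compared groups alone, under the replicate block and at a threshold of 0.01, and 0 to 1 with single libraries left out. The 16 that fell were 10 to 16. For dKO_PRMT1 relative to dKO_EV, 1 gene fell with the filter of 5 CPM, and 0 to 1 rose with single libraries left out. For dKO_MUT relative to dKO_EV, the 2 that rose were 1 with the filter of 5 CPM and in the compared groups alone, 0 at 0.01, and 0 to 2 with single libraries left out. For dKO_PRMT1 relative to dKO_MUT, 1 gene was lower in the compared groups alone, and 0 to 1 with single libraries left out. Relative to WT_EV, the 1 gene higher in dKO_MUT was 0 at 0.01 and 0 to 1 with single libraries left out, the 11 lower were 7 to 15, and the 20 lower in dKO_PRMT1 were 10 to 23, and 24 in the compared groups alone. The median of the 40 genes was -0.185 to -0.153 in dKO_EV relative to WT_EV with single libraries left out, -0.0125 to 0.0318 in dKO_PRMT1 relative to dKO_EV and 0.0211 to 0.0556 in dKO_MUT relative to dKO_EV. The median of all tested genes moved by no more than 0.0123. Replicate numbers marked no shared source in the labels, and deviations of same-numbered libraries correlated at -0.03 to 0. The replicate block lost the call of Ubtf (adjusted p = 0.052) and left the count of 16 at 16. Over all genes, leaving out WT_EV replicate 1, WT_EV replicate 2 or using a threshold of 0.01 gave 664, 613 and 670 that rose, against 1075, and 545, 536 and 539 that fell, against 892, in dKO_EV relative to WT_EV. With dKO_PRMT1 replicate 1 or 2 left out, 409 and 367 rose relative to dKO_EV, against 759, and 724 and 691 fell, against 1105, and 396 rose at 0.01. For dKO_MUT relative to dKO_EV, 324 rose without dKO_MUT replicate 2 and 277 at 0.01, against 540. For dKO_PRMT1 relative to dKO_MUT, 69 to 105 were higher, against 182, and 102 to 143 lower, against 214, with a library of either group left out or at 0.01. Without dKO_PRMT1 replicate 1, 899 genes were higher in dKO_PRMT1 than in WT_EV, against 1404, and without WT_EV replicate 2, 780 were higher in dKO_MUT, against 1199. With 2 libraries a group, the smaller changes of this set, such as that of Ubtf, lie near what the standard errors resolve.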
